A study of Rattus norvegicus with 19 samples.

Results

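The 8 genes described here, Irf1, Irf7, Isg15, Oas1a, Mx1, Mx2, Ifi27 and Ifi27l2b, belong to the interferon response and were measured in the livers of adult male Wistar rats. They were found by gene symbol, RefSeq accession or older synonym among the 41012 non-control probes of a rat Agilent array, which gave 9 probes: 1 for each gene except Ifi27l2b, which had 2. Rats were 8 weeks old when the diets began and ate them for 4 months. The 7 control rats (Control) ate a low fat diet with 70% of energy from carbohydrate, 10% from fat and 20% from protein. The 6 high protein rats (HP) received 45% of energy from carbohydrate, 10% from fat and 45% from protein, mostly casein. The 6 high fat rats (HF) received 20% of energy from carbohydrate, 60% from fat and 20% from protein. All animals were wild type, housed singly and killed in the fed state. HP and HF differ from each other in all 3 macronutrients, so a difference between them cannot be assigned to protein, fat or carbohydrate. Against Control, HP had more protein and less carbohydrate, and HF more fat and less carbohydrate. Those changes cannot be told apart either. Each array carried the Cy5-labelled RNA of 1 rat against a Cy3-labelled pool of liver RNA, and values are log2 ratios of the rat to that pool, where 0 is the level of the pool.

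Interferons are cytokines that cells release on sensing viral nucleic acid or other danger signals. Their receptors act through JAK kinases and STAT factors, which with IRF9 bind the interferon-stimulated response element in the promoters of target genes. Irf1 and Irf7 encode transcription factors of this system, and Isg15, the Oas, Mx and Ifi27 genes are among its induced genes. Hepatocytes and the immune cells of the liver both respond to interferon. In whole liver RNA, fewer cells of a type and less RNA per cell cannot be told apart.

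Promoter windows of 300 bases, from 250 bases before to 50 after the annotated start, were read from RefSeq (GRCr8) to show where the core of the response element (GAAA, then any 2 bases, then GAAA, on either strand) lies in these genes. Windows were at hand for 5 of the 8 genes (Irf1, Irf7, Oas1a, Mx1 and Ifi27). The core was in 3 of these 5 windows, in 41 of 85 windows of other interferon pathway genes (48.2%) and in 1131 of 27457 windows of all genes (4.12%). The 3 windows with a match are printed to show where it lies, and capitals mark the matches.
Irf7 chr1:205799974-205800273, minus strand: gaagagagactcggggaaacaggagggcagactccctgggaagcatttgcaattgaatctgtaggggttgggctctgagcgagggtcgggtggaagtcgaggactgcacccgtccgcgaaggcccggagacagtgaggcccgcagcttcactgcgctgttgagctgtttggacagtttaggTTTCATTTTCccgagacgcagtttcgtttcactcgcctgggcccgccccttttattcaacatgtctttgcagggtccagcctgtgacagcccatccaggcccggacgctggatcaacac
Oas1a chr12:41330216-41330515, plus strand: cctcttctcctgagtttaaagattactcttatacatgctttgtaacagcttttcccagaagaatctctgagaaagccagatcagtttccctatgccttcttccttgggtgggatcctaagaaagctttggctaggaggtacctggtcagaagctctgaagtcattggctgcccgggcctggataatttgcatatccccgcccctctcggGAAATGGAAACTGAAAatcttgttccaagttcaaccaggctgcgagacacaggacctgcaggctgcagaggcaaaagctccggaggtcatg
Ifi27 chr6:128355062-128355361, plus strand: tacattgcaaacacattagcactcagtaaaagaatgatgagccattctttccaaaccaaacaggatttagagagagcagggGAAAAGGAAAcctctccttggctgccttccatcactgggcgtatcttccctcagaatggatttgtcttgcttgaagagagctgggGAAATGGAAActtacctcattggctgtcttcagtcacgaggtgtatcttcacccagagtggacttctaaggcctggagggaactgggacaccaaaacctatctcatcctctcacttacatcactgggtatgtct
In Irf7 the single match, TTTCATTTTC, read on the opposite strand, starts 69 bases before the start. In Oas1a the matches GAAATGGAAA and GAAACTGAAA overlap and start 41 and 35 bases before it. In Ifi27 the matches GAAAAGGAAA and GAAATGGAAA lie apart, 169 and 84 bases before it. The windows of Irf1 and Mx1 did not hold these letters. A match describes the sequence and does not show that a factor binds there.

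The arrays lay on 5 slides and were scanned on 1 day. The share of non-control probes with a Cy5 signal clear of background ran from 54.2% to 67.5% per array. The 16 probes of 10 hepatocyte marker genes were measured in all groups; 7 of them were called in HP against HF, 5 higher (among them Cps1 by 0.60) and 2 lower (among them Cyp2e1, difference -1.38). Of 12 stellate cell marker probes, 3 were called higher in HF than in Control (Rgs5 by 0.60, Reln by 0.52 and 0.51). In addition, 1 was called higher in HP than in Control and 2 lower in HP than in HF. Of all probes 0.446% were called in HP against Control, 3.45% in HF against Control and 7.09% in HP against HF. The part of the marker changes in the member values was not tested. The liver of control rat 6 stood apart: the median log2 ratio of 13 lymphocyte marker probes (11 of 20 listed genes, among them Cd3d, Cd3g, Cd8a and Cd79b) was 2.56 there and between -0.89 and -0.48 in the other 18 livers. Results that involve controls are therefore also given without that rat where it matters. Without it, 2 of the stellate cell probes were called higher in HF than in Control.

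Of the 9 probes, 8 passed the requirement of a Cy5 signal well above background on at least 6 of the 19 arrays, and Mx1 did not. The 8 that passed were above background in Cy5 on all 19 arrays. A difference between diets was tested with limma's moderated test on all 25313 probes that passed, and a probe is called where the p-value adjusted over all of them by the Benjamini-Hochberg method was under 0.05.

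The clearest diet difference was in Ifi27l2b, which encodes a small hydrophobic protein of the ISG12 family. Its probe at chr6:127733554-127733613 (rn4, the build of the array's annotation) was the brightest of the members, with a median raw Cy5 signal of 60582 in controls, 87895 in HP and 29750 in HF. The log2 ratio was lowest at -0.75, at the median 0.06 and highest at 0.50 in controls. In HP it ran from 0.06 through a median of 0.61 to 1.15, and in HF from -1.34 through -1.05 to -0.78. All 6 HF livers were below every HP and every control liver, although the gap to the lowest control (rat 5, at -0.75) was narrow. Ifi27l2b fell in HF against Control by 1.09 on the log2 scale (SE 0.20, limma adjusted p = 0.0027), to 0.47 of the control level. HP exceeded HF by 1.63 (SE 0.20, limma adjusted p = 8.94e-05), or 3.10-fold. The difference of 0.54 between HP and Control (SE 0.20, 95% interval 0.13 to 0.95, limma adjusted p = 0.211) did not pass, and these groups overlapped.

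Livers from 1 slide can be compared without differences between slides. Within slides 1, 2 and 3, Ifi27l2b in HF minus Control was -0.96, -1.26 and -0.79. HP and HF met only on slide 1, where HP minus HF was 1.24. Within slides 1, 4 and 5, HP minus Control was 0.28, 0.86 and 0.27. All 7 within-slide differences had the direction of the fitted one, each from 1 to 3 livers per group. The differences on slide 1 share livers, so they are not independent of each other.

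A second probe is assigned to Ifi27l2b by synonym only. It lies at chr1:208427760-208427805 (rn4), whereas the gene is on chromosome 6, and it was dim, with median raw Cy5 signals between 75.3 and 83.9. Its log2 ratios stayed between -0.32 and 0.12 in all 19 livers, and the groups overlapped. The HF minus Control difference was -0.0041 (95% interval -0.14 to 0.14, limma adjusted p = 0.987), and HP minus HF was -0.02 (limma adjusted p = 0.938). Across 19 livers it correlated with the chromosome 6 probe at r = 0.07 (permutation p = 0.78, adjusted 0.83; Spearman's rho = 0.37, permutation p = 0.12, adjusted 0.21). The 2 probes thus disagreed, and the values of Ifi27l2b in the rest of the text are those of the chromosome 6 probe unless the other is named.

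Ifi27, which neighbours Ifi27l2b on chromosome 6 and encodes a related ISG12 protein, followed the same order of groups over a smaller range. Its probe lies at chr6:127727107-127727166 (rn4) and had median raw Cy5 signals of 32077 in controls, 32272 in HP and 21409 in HF. Log2 ratios ran from -0.59 through a median of -0.14 to -0.00092 in controls, from -0.39 through -0.03 to 0.23 in HP and from -0.67 through -0.48 to -0.24 in HF. Control rats 3 and 5 and HP rat 5 lay within the HF range, so the groups overlapped. Ifi27 was higher in HP than in HF by 0.42 (SE 0.10, limma adjusted p = 0.0173). It was lower in HF than in Control by 0.27 (95% interval of the difference -0.48 to -0.06, limma adjusted p = 0.165), which did not pass over all probes. HP minus Control was 0.15 (SE 0.10, limma adjusted p = 0.528). With slide as a fixed block, which leaves only slide 1 to compare HP and HF directly, the HP minus HF difference was 0.44 and no longer passed (limma adjusted p = 0.219).

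**Figure D1:**
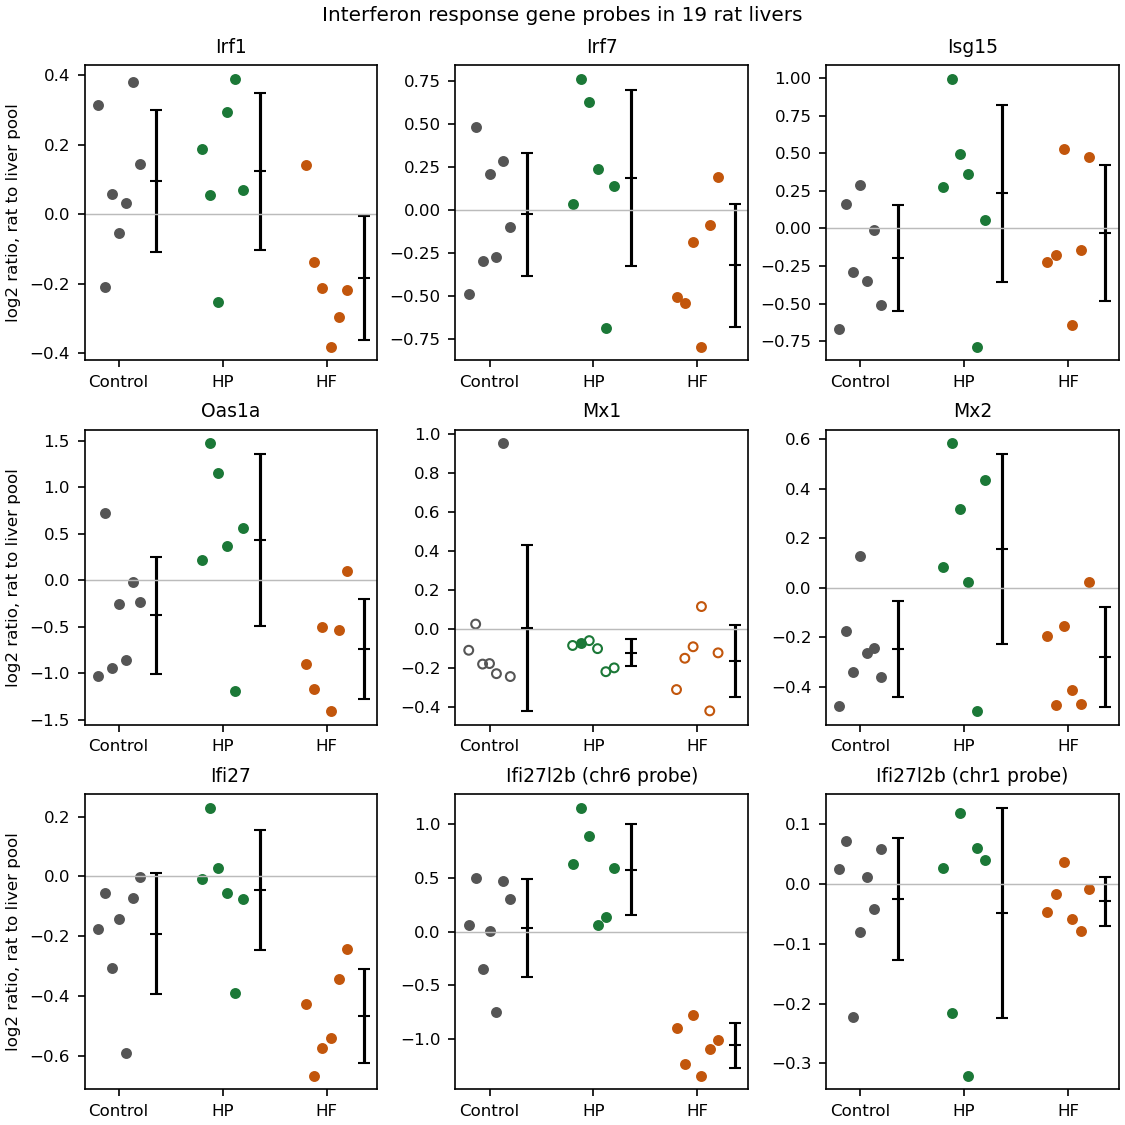
Log2 ratio to the liver pool (vertical axis) for each of the 9 probes in 7 Control, 6 HP and 6 HF livers; each point is 1 rat, open where Cy5 was not well above background, and the bars are the mean and SD. The 6 HF livers lie below all others for the chromosome 6 probe of Ifi27l2b, between -1.34 and -0.78, and the groups overlap for the other probes.

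Oas1a encodes an oligoadenylate synthetase, an enzyme that senses double-stranded RNA and whose product activates RNase L. Its probe lies at chr12:36816612-36816671 (rn4), and the accessions of that probe also include Oas1k, so the copies cannot be told apart. Log2 ratios ran from -1.03 through a median of -0.26 to 0.73 in controls, from -1.19 through 0.47 to 1.47 in HP and from -1.41 through -0.72 to 0.09 in HF. This was the widest spread among the members: HP rats 2 and 3 were at 1.47 and 1.15, while HP rat 5 was at -1.19 and below all but 1 of the HF livers. HP minus HF was 1.17 (SE 0.38, 95% interval 0.38 to 1.95, limma adjusted p = 0.0658), short of the threshold. HP minus Control was 0.81 (SE 0.36, limma adjusted p = 0.316) and HF minus Control -0.36 (limma adjusted p = 0.683). With 1 rat left out at a time, HP minus HF ran from 0.96 without HP rat 2, the highest of its group (limma adjusted p = 0.156), to 1.49 without HP rat 5, the lowest (limma adjusted p = 0.00898). It also passed without HF rat 6 (1.33, limma adjusted p = 0.0466), in the deposited matrix (1.26, limma adjusted p = 0.0460) and with arrays scaled to one spread (1.46, limma adjusted p = 0.0237).

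Mx2 encodes a dynamin-like GTPase of the antiviral Mx family. Its probe, at chr11:37568920-37570815 (rn4), was dim, with median raw Cy5 signals between 106 and 157. Log2 ratios ran from -0.48 through -0.26 to 0.13 in controls, from -0.50 through 0.20 to 0.58 in HP and from -0.47 through -0.30 to 0.02 in HF. In HP 5 of 6 rats lay at 0.02 or above, and HP rat 5 was at -0.50. HP minus HF was 0.44 (SE 0.15, limma adjusted p = 0.0763) and HP minus Control 0.40 (SE 0.14, limma adjusted p = 0.188). HF minus Control was -0.03 (95% interval -0.32 to 0.26, limma adjusted p = 0.941). With 1 rat left out, HP minus HF ran from 0.35 without HP rat 2 (limma adjusted p = 0.179) to 0.57 without the low HP rat 5 (limma adjusted p = 0.00815). It also passed with normexp on every spot (0.49, limma adjusted p = 0.0185) and with scaled arrays (0.53, limma adjusted p = 0.0352). Over 30 other settings HP minus HF ran from 0.35 to 0.85, and HP minus Control from 0.32 to 0.81.

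Mx1, its paralog, was well above background in Cy5 on 2 of 19 arrays, those of control rat 6 and HP rat 2, and gives no test. The probe lies at chr11:37439631-37439690 (rn4). In control rat 6 the log2 ratio was 0.95, and in the other 6 controls it was between -0.24 and 0.03. HP livers were between -0.22 and -0.06 and HF livers between -0.42 and 0.12. Apart from HP rat 2, values outside control rat 6 describe a probe at background and carry no order. Control rat 6 is the liver with the high lymphocyte markers, whose part in the Mx1 value was not tested.

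Irf7 encodes the factor that drives the amplification of type I interferon and is itself interferon-induced. Its probe lies at chr1:201456889-201456948 (rn4). Log2 ratios ran from -0.49 through -0.10 to 0.48 in controls, from -0.69 through 0.19 to 0.76 in HP and from -0.80 through -0.35 to 0.19 in HF. HP rats 2 and 3 were again the highest, at 0.76 and 0.62, and HP rat 5 the lowest of its group. HP minus HF was 0.51 (SE 0.22, limma adjusted p = 0.189), HP minus Control 0.21 (limma adjusted p = 0.679) and HF minus Control -0.30 (limma adjusted p = 0.549), and none passed. With 1 rat left out, HP minus HF ran from 0.39 without HP rat 2 (limma adjusted p = 0.367) to 0.68 without the low HP rat 5 (limma adjusted p = 0.0438).

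Isg15 encodes a ubiquitin-like protein that is joined to other proteins during the response. Its probe, at chr5:173034674-173034733 (rn4), carries an older name on the array and was matched by synonym. Log2 ratios ran from -0.67 through -0.29 to 0.29 in controls, from -0.79 through 0.32 to 1.00 in HP and from -0.64 through -0.16 to 0.53 in HF. It was the only one of the 8 tested probes with a higher mean in HF than in Control, by 0.17 (SE 0.24, limma adjusted p = 0.790). HP minus Control was 0.43 (SE 0.24, limma adjusted p = 0.430) and HP minus HF 0.27 (95% interval -0.25 to 0.78, limma adjusted p = 0.632), and the 3 groups overlapped throughout.

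Irf1 encodes a transcription factor induced by interferon gamma. Its probe lies at chr10:39224461-39224695 (rn4). Log2 ratios ran from -0.21 through 0.06 to 0.38 in controls, from -0.25 through 0.13 to 0.39 in HP and from -0.38 through -0.21 to 0.14 in HF. Of the HF livers, 5 of 6 were at -0.14 or below and HF rat 1 was at 0.14. HF minus Control was -0.28 (SE 0.11, limma adjusted p = 0.192), HP minus HF was 0.31 (SE 0.11, limma adjusted p = 0.108) and HP minus Control was 0.03 (limma adjusted p = 0.924). Over 30 other settings HP minus HF ran from 0.08 to 0.59 and passed in 3. It was 0.45 with scaled arrays (limma adjusted p = 0.0317). Leaving out 1 rat gave 0.25 to 0.38 (limma adjusted p = 0.221 and 0.0352). HF minus Control was then -0.34 to -0.23 and did not pass in any setting.

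Counted together, none of the 8 tested probes was called in HP against Control by limma, where 0.446% of all probes were called (0.308% higher and 0.138% lower); 3 had an unadjusted p under 0.05, beside 14.4% of all probes. Of the 8, 7 had a higher mean in HP, with a median difference of 0.31 against -0.0095 over all probes. In HF against Control 1 of 8 was called, lower (Ifi27l2b), where 3.45% of all probes were called, 1.73% lower and 1.72% higher; 3 had an unadjusted p under 0.05, beside 15.7% of all probes. Of the 8, 7 had a lower mean in HF, with a median of -0.28 against -0.011. Within slides 1, 2 and 3 that median was -0.04, -0.41 and 0.06, so it did not keep its direction within slides, and Oas1a was at 0.13, -1.07 and 0.33. In HP against HF 2 of 8 were called, both higher (Ifi27l2b and Ifi27), where 7.09% of all probes were called, 3.82% higher and 3.27% lower; 6 had an unadjusted p under 0.05, beside 20.2% of all probes. The median was 0.43 against -0.0014, with 7 of 8 higher in HP, and 0.47 within slide 1. For HP minus Control the median was 0.41, 0.29 and 0.19 within slides 1, 4 and 5. HP and HF were each set against the same control livers, and HP and HF against each other use the livers of both, so the 3 comparisons are not independent. Several members also varied together from rat to rat, so the 8 probes are not 8 separate measurements. The SD of the member median among rats within groups was 0.249. In limma's F test for any diet difference, Ifi27l2b and Ifi27 passed (adjusted p = 0.000185 and 0.0399), 2 of 8 beside 6.56% of all probes. Without control rat 6 the medians were 0.33, -0.24 and 0.43 and the counts of called probes 0, 1 and 2, where 0.273%, 3.95% and 9.96% of all probes were called.

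**Figure D2:**
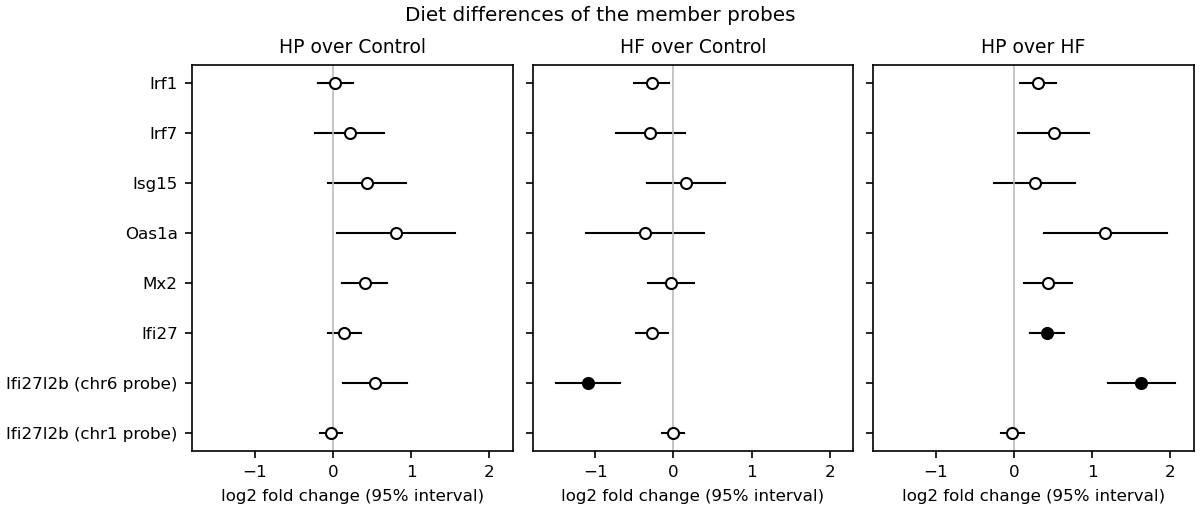
Log2 fold change with its 95% interval (horizontal axis) for the 8 tested probes in each comparison; filled points passed an adjusted p of 0.05. The chromosome 6 probe of Ifi27l2b is filled at -1.09 for HF over Control and 1.63 for HP over HF, and Ifi27 is filled at 0.42 for HP over HF.

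Several members varied together from rat to rat. Among Irf7, Isg15, Oas1a and Mx2, the 6 pairs correlated over the 19 livers at r between 0.78 and 0.96 and Spearman's rho between 0.76 and 0.94. The largest adjusted permutation p over the 28 pairs of member probes was 0.00031 for r and 0.00078 for rho among these 6 pairs. After subtraction of the group means r was between 0.77 and 0.97. Without the 2 livers farthest from the median of the first-named gene of each pair, r was between 0.64 and 0.93. Here and below, a liver that is extreme only in the second gene can stay in. Irf7 and Oas1a gave r = 0.96 (permutation p = 1e-05, the smallest that 100000 permutations give, adjusted 9.3e-05; rho = 0.94, adjusted permutation p = 0.00014; r = 0.93 without the 2 farthest livers). Within the HP group, rat 5 was the lowest and rat 2 the highest in all 4 genes. The genes were measured on the same arrays, and the part of array differences in these correlations was not tested.

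Ifi27 and Ifi27l2b correlated at r = 0.88 (permutation p = 1e-05, adjusted 9.3e-05; rho = 0.85, adjusted permutation p = 0.00019), at 0.87 without the 2 farthest livers and at 0.78 after subtraction of the group means. Ifi27 also followed Oas1a (r = 0.83, adjusted permutation p = 0.00019; rho = 0.81, adjusted permutation p = 0.00039) and Irf7 (r = 0.79, adjusted permutation p = 0.00031; rho = 0.78, adjusted permutation p = 0.00064). Over all livers Irf1 gave r from -0.25 with Isg15 (adjusted permutation p = 0.47) to 0.44 with Ifi27l2b (adjusted permutation p = 0.11). It was near 0 with Oas1a, at r = -0.05 (adjusted permutation p = 0.83; rho = -0.04, adjusted permutation p = 0.95), and with Irf7, at r = -0.08 (adjusted permutation p = 0.83; rho = -0.07, adjusted permutation p = 0.90). After subtraction of the group means these were -0.49 and -0.47, and without the 2 farthest livers -0.29 and -0.33, which were not tested. Of the 28 pairs, 13 had an adjusted p under 0.05 for r, none of them with Irf1 or the second Ifi27l2b probe. Isg15 did not pass with Ifi27 (r = 0.49, adjusted permutation p = 0.072) or with Ifi27l2b (r = 0.38, adjusted permutation p = 0.19).

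**Figure D3:**
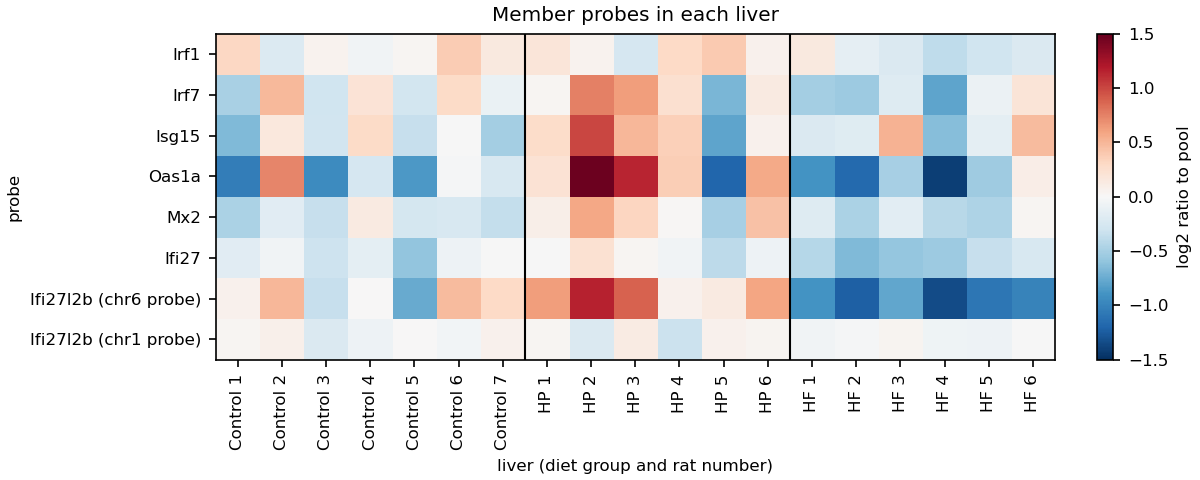
Log2 ratio to the liver pool (colour, red above and blue below 0) for the 8 tested probes (rows) in each of the 19 livers (columns, by diet group). HP rat 5 is blue for Irf7, Isg15, Oas1a and Mx2, at -0.69, -0.79, -1.19 and -0.50, while HP rat 2 is red for the same genes, and the HF columns are blue for the chromosome 6 probe of Ifi27l2b.

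**Figure D4:**
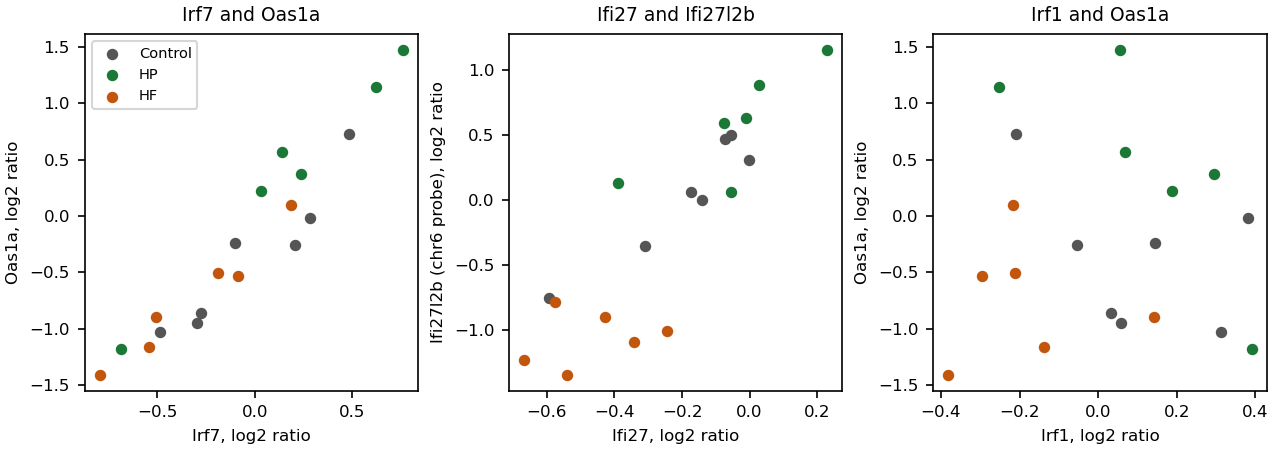
Log2 ratios of pairs of members in 19 livers, 1 point per rat, coloured by diet: Irf7 with Oas1a (r = 0.96), Ifi27 with Ifi27l2b (r = 0.88) and Irf1 with Oas1a (r = -0.05). The first and second panels show the livers along a line and the third does not.

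The mean of the members was taken with 1 probe per member and without Mx1, which did not pass the filter. Genes outside the 8 whose log2 ratios over the 19 livers were most like it were Oas1i (r = 0.93), Usp18 (r = 0.90), Ube2l6 (r = 0.86), Adora3 (r = 0.82) and Lgals9 (r = 0.81). They were picked for this likeness, so it is given as a description. Of 25305 other probes 11 reached r = 0.8, and the median r was 0.02. Oas1i is a relative of Oas1a, Usp18 removes Isg15 from proteins and restrains interferon signalling, and Ube2l6 is the conjugating enzyme for Isg15. Adora3 encodes an adenosine receptor, and its log2 ratios stayed between -0.15 and 0.17. Lgals9 encodes the lectin galectin-9. Without control rat 6, Oas1i (r = 0.94), Usp18 (r = 0.90), Ube2l6 (r = 0.90) and Adora3 (r = 0.86) were again the first 4. Lgals9 was higher in HP than in HF by 0.86 (SE 0.12, limma adjusted p = 0.00014) and lower in HF than in Control by 0.55 (limma adjusted p = 0.0073). The latter was no longer past the threshold with slide as a fixed block, although its value was again -0.55 (limma adjusted p = 0.0539). The member mean by which Lgals9 was picked was itself higher in most HP than HF livers. The pick thus favoured such differences, and these p-values are not independent of it.

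Of 113 other genes listed by role, 88 were on the array and 77 (94 probes) passed the filter. None of the 94 probes was called in HP against Control, 1 was called lower in HF against Control, and 2 were called higher and 1 lower in HP against HF. Over all probes 0.446%, 3.45% and 7.09% were called in these comparisons. The median differences were -0.03, -0.08 and 0.04, against -0.0095, -0.011 and -0.0014 over all probes. Without control rat 6 they were 0.01, -0.07 and 0.04, against -0.0010, -0.00020 and -0.0014. The median for HP against Control thus changed sign with that rat. Among 12 probes of nucleic acid sensors and adaptors, both probes of the viral RNA sensor Rig1 (the RIG-I gene, Ddx58 on the array) were higher in HP than in HF, by 0.50 (SE 0.10, limma adjusted p = 0.0028) and 0.49 (SE 0.11, limma adjusted p = 0.0105). For the first of these probes the HP livers lay between -0.02 and 0.45 and the HF livers between -0.53 and -0.11, with no overlap. For the second the HP livers lay between -0.0032 and 0.48 and the HF livers between -0.49 and -0.04, again with no overlap. The Rig1 relative Dhx58 differed by 0.25 (limma adjusted p = 0.0600) and the kinase gene Ikbke by 0.20 (limma adjusted p = 0.0954). Dhx58 passed in 3 of 30 other settings, with a lowest limma adjusted p of 0.0327. The Ikbke difference moved with the processing, to 0.75 on processed signals (limma adjusted p = 0.0054) and 0.44 in the deposited matrix (limma adjusted p = 0.0148), and it passed in 6 of 30 other settings.

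Of 6 probes of other IRF factors, Irf2, which encodes a factor that can repress interferon targets, was lower in HP than in HF by 0.47 on the log2 scale (difference -0.47, SE 0.09, limma adjusted p = 0.0037). HP livers ran from -0.43 to 0.09 and HF livers from 0.0051 to 0.42 for Irf2, so the groups met at their edges. Irf9, a partner of the STAT factors, had a difference of 0.21 (limma adjusted p = 0.205) and Irf3 of -0.11 (limma adjusted p = 0.720). With slide as a fixed block the Rig1 probes and Irf2 lost their calls, with differences of 0.45 and 0.53 for Rig1 and -0.30 for Irf2 (limma adjusted p = 0.146, 0.103 and 0.152).

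Of 12 receptor and signalling probes, none was called: HP minus HF was 0.22 for Stat2 (limma adjusted p = 0.123) and -0.24 for the interferon gamma receptor gene Ifngr2 (limma adjusted p = 0.0698). Of 10 ligand genes only Ifna16l1 passed the filter, with a difference of 0.02 (limma adjusted p = 0.925). Ifnb1 and Ifng did not pass it. None of 44 probes of other induced genes was called: HP minus HF was 0.70 for Oas1i (limma adjusted p = 0.0573), 0.37 for Parp9 (limma adjusted p = 0.131) and 0.15 for Herc6 (limma adjusted p = 0.399). Oas1i passed in 6 of 30 other settings and Parp9 in 1, with lowest limma adjusted p of 0.0135 and 0.0422. None of 7 probes of genes that restrain the response was called, among them the first Usp18 probe at 0.58 (limma adjusted p = 0.129) and Pias1 at -0.20 (limma adjusted p = 0.0549). These 2 probes passed in 2 and 7 of 30 other settings, with lowest limma adjusted p of 0.0212 and 0.0079.

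Of 12 antigen presentation probes, only Tapbp, which encodes tapasin, was called: it fell in HF against Control by 0.26 on the log2 scale (SE 0.07, limma adjusted p = 0.0335). That call was lost in 15 of 30 other settings, over which the difference ran from -0.33 to -0.19. HP minus HF was between -0.11 and -0.00030 for the 4 probes of B2m, the light chain of class I molecules (lowest limma adjusted p = 0.731), and -0.31 for the peptide transporter gene Tap2 (limma adjusted p = 0.157). The median log2 ratio of this group was 0.51 in control rat 6 and between -0.47 and 0.09 in the other livers. Without control rat 6 the pathway counts were 0 in HP against Control, 3 lower in HF against Control (Tapbp and both Rig1 probes), and 6 higher and 2 lower in HP against HF, where Dhx58, Ikbke and Oas1i were among those that joined the Rig1 probes and Pias1 joined Irf2. In those fits 0.273%, 3.95% and 9.96% of all probes were called. The HP and HF means do not use the controls, so only the estimate of the spread changed in that last comparison.

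**Figure D5:**
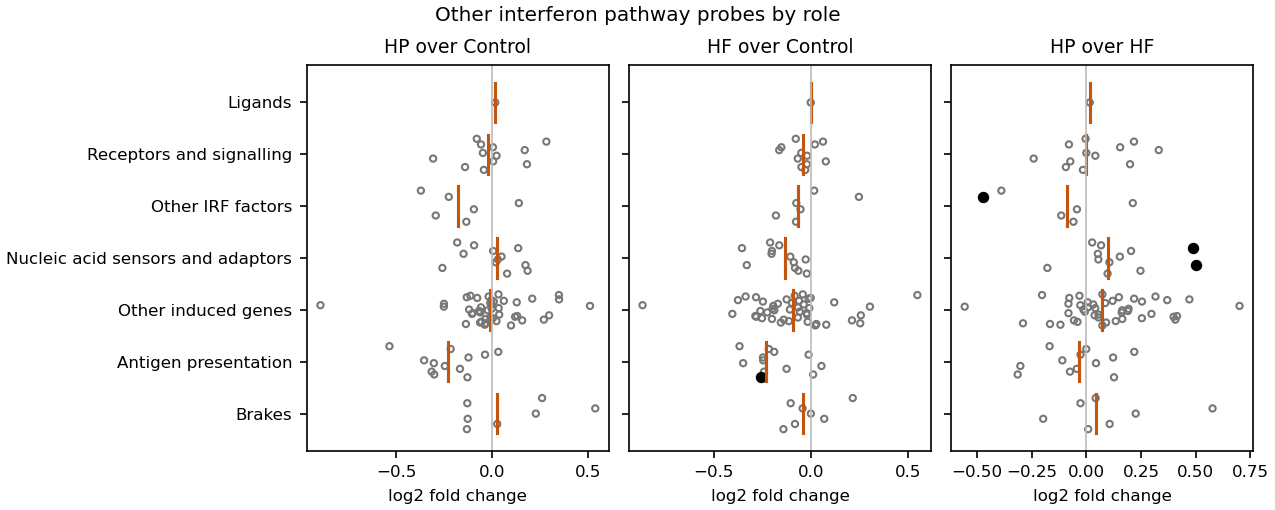
Log2 fold change (horizontal axis) of the 94 probes of other interferon pathway genes by role in each comparison; filled black points passed an adjusted p of 0.05 and orange bars are medians. The filled points are Tapbp in HF over Control, and both Rig1 probes (right) and Irf2 (left) in HP over HF.

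Markers of immune cells that could contribute RNA of this response are given beside the members. The median log2 ratio of 13 Kupffer cell and macrophage probes (9 of 12 listed genes) ranged from -0.40 to 0.14 in controls, from -0.25 to 0.18 in HP and from -0.40 to 0.08 in HF, and none was called in any comparison. Their summed raw Cy5 signals were 48889 to 77267 in controls, 49958 to 91054 in HP and 42360 to 73389 in HF. For 4 plasmacytoid dendritic cell probes (3 of 6 listed genes: Siglech, Tcf4 and Bst2, itself interferon-induced) the ranges were -0.39 to 0.28, -0.44 to 0.14 and -0.44 to 0.02, and the median difference between HP and HF was 0.18. Within that list Tcf4 was lower in HP than in HF (difference -0.51, limma adjusted p = 0.0212), while the probes of Bst2 were at 0.41 and 0.40 (limma adjusted p = 0.260 and 0.274) and Siglech at -0.04 (limma adjusted p = 0.833). Their summed signals were 8659 to 17090 in controls, 8139 to 21680 in HP and 7496 to 11776 in HF. None of 13 lymphocyte probes was called either, and their median difference between HP and HF was 0.04. Their summed signals were 2286 to 75838 in controls, the highest in rat 6, 1949 to 2669 in HP and 1739 to 2562 in HF. The part of these cells in the member values was not tested.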

How the data were processed

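Liver RNA of 19 rats was measured on 2-colour Agilent arrays, 1 array per rat, with rats grouped by the sample titles. Raw spot intensity values were read as deposited; per the file headers they were extracted with Agilent Feature Extraction 10.5.1.1 and annotated on rn4. The deposited log10 ratio of each spot was not used. The deposited log2 matrix of the authors (22764 features, median 8.20 on each array, centring and scale not stated) served as an alternative; it correlated with the centred log ratios at 0.913 to 0.976. Cy5 carries the rat in every array, per the labels, with no dye swap, so a dye effect is shared by all groups.

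Background was corrected with normexp (offset 50; 40 spots on 5 arrays with background over signal by more than 50 dropped), followed by loess within arrays, with control spots at weight 0. Outlier flags were left out and spots of a probe averaged. A 3-group model was fitted with limma 3.58.1 in R 4.3.3 to 25313 probes above background in Cy5 on at least 6 arrays, with Benjamini-Hochberg adjustment; the script was tested on simulated data. Gene names come from array symbols and accessions, updated through RefSeq. Where a probe lies in its transcript was not analysed here. The number of arrays limits the precision.

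The members, gene lists and tests were chosen with earlier results of these data known. Named genes are all member probes, pathway probes that were called or among the up to 4 with the smallest F test p of a role, and the 5 genes most like the member mean; some that the rule picks are not reported here. Like-numbered rats of different groups did not vary together (mean r -0.0092 over 18 pairs), so the numbers were not taken as pairs. Alternatives covered background correction, signal, scaling, filter, slide, replicate block and leaving out each rat.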

Additional observations from a re-analysis of the deposited data

Results flagged for a closer look

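The Mx1 log2 ratio of 0.95 in control rat 6 stood apart from the other 6 controls by Dixon's 95% critical value of 0.568 for 7 samples. The other 6 controls were not well above background in Cy5, and control rat 6 was not in Cy3, so the ratio and the gap have no exact size. It was the single one of 27 groups of member values past its limit, and chance alone passes about 1 group in 20. That liver is the one with the high lymphocyte markers.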

How the results depend on the processing

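Under 30 other settings, the lower Ifi27l2b level in HF than in Control (-1.40 to -0.87) and the higher level in HP than in HF (1.48 to 1.93) kept their direction and stayed past the threshold, with adjusted p of at most 0.0384 and 0.0154. The Ifi27 difference between HP and HF was lost only with slide as a fixed block. No member was called in HP against Control under any of these settings. The median difference of the members kept its direction in all 3 comparisons under the other array settings, the slide blocks and the replicate block; with one probe per gene the dim second Ifi27l2b probe drops out, so no count or median of the 8 was made.

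The probes called in HP against Control, 113 here, numbered 61 with normexp on every spot, 54 on processed signals, 53 with Cy5 alone, 4 with arrays scaled to one spread, 24 with slide as a fixed block and 209 with the replicate block, and 26 to 460 when 1 rat was left out. Of these calls, 69.0% were higher, against 52.5% with normexp on every spot, 90% in the deposited matrix, 87.5% with the slide block and 100% of the 4 calls with scaled arrays; in HP against HF 53.8% were higher, against 64.9% with the slide block. With slide as a fixed block the probes called in HF against Control were 474 and in HP against HF 365, and 1 member was called in HP against HF. Scaling arrays to one spread called 2 members in HF against Control and 5 in HP against HF. Leaving out 1 rat gave 1 to 2 called members in HF against Control (2 without control rat 5, where Ifi27 had -0.34) and 2 to 5 in HP against HF (5 without HP rat 5). In HP against HF, Mx2 also passed with normexp on every spot and Oas1a in the deposited matrix. The causes were not tested.

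Differences near 0 changed sign. Irf1 in HP against Control was -0.00066 with normexp on every spot, -0.097 with the slide block and -0.025 to 0.10 with 1 rat left out. For the second Ifi27l2b probe, HP against Control was 0.021 with normexp on every spot, 0.0045 in the deposited matrix and -0.057 to 0.031 with 1 rat left out. Its HF against Control value was 2.9e-05 with normexp on every spot, 0.19 on processed signals, 0.0029 with Cy5 alone, 0.072 in the matrix, 0.060 with slide fixed, 0.00057 with slide random and 0.010 with the replicate block, and -0.037 to 0.012 with 1 rat left out. Its HP against HF value was 0.021 with normexp on every spot and -0.053 to 0.035 with 1 rat left out. Mx2 in HF against Control was -0.093 to 0.031 with 1 rat left out. In HP against HF the second B2m probe was at 0.025 with Cy5 alone and 0.013 in the matrix, and Socs3 at -0.016 with normexp on every spot. Ifna16l1 was at -0.045, -0.042 and -0.018 with processed signals, Cy5 alone and slide fixed, and at -0.00099 to 0.045 with 1 rat left out. The dim probes of Mx2, the second Ifi27l2b probe and Mx1 are limited by signal over background.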
